A study of Homo sapiens with 4 samples.

Results

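The RNA left in ovarian cancer cells after transfection of miR-491-5p was compared with that of cells given a control miRNA. The cells were IGROV1-R10, a cisplatin-resistant line derived from the human ovarian carcinoma line IGROV1. They received a biotin-carrying duplex of miR-491-5p, or of a miRNA from the worm C. elegans (cel-miR-65, by the series' design), at 60 nM with the lipid reagent INTERFERin. Both groups thus share the reagent, the biotin and the dose, and no untransfected cells were sequenced among the samples used here. After lysis the nuclei and debris were spun out, and RNA of 10% of the cleared lysate made the input. The time from transfection to lysis is not given in the labels. The other lysate went over streptavidin beads for 4 h and was washed 5 times, and those 2 pull-down libraries serve here only as a second readout. Each of the 4 groups has 1 library, for which the RNA of 3 experiments was combined.

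The comparison takes in each gene whose normalised count averaged 50 or more over the inputs, which held for 12207 of the 60554 genes in the table. A normalised count is a read count divided by a size factor computed from both inputs alone (1.105 for the miR-491-5p input and 0.905 for the control input). The totals were 59588552 and 47679684 counts, and the measured genes held 99.8% of the counts of each input. Just under the minimum stood NR4A3, with 64 counts after miR-491-5p and 38 after the control, and just over it PRRT3, with 58 and 43. RefSeq names were found by position for 11414 of the measured genes, 10588 measured genes were protein-coding and 473 were lncRNA genes.

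Ratios are given as log2 of the miR-491-5p input over the control input, on normalised counts plus 1, so that values below 0 mean less RNA with miR-491-5p. Many counts below are raw, not scaled for the larger total of the miR-491-5p input, so such a pair can differ from the ratio beside it. The range beside a ratio is its 95% interval from counting error alone. Pooling hides the spread between the 3 experiments, so no difference below could be checked against replicates and no p-value is given. A gene is called higher or lower at 2-fold when its ratio passes 2-fold and its interval excludes 0, and likewise at 1.5-fold. Both reads of a sequenced pair were counted (in the control input 2830 genes had 2 counts and 1566 had 1), which makes the intervals too narrow. With the counts halved the interval's typical distance to either side of the ratio (median over genes) went from 0.11 to 0.15, and the number of calls at 2-fold stayed at 54 on each side.

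MicroRNAs are short RNAs that guide Argonaute proteins to messenger RNAs, mostly through pairing of their seed, the bases near their 5′ end, and the paired transcripts are then degraded or translated less. miR-491-5p is described as a tumour suppressor in several carcinomas. In ovarian cancer cells it has been reported to lower BCL-xL, the survival protein encoded by BCL2L1, and EGFR, a growth factor receptor that signals through the ERK kinases. The mature miRNA and the other arm of its hairpin are shown to give the seed (bases 2 to 8, in capitals), as RefSeq lists them on GRCh38.p14.
hsa-miR-491-5p: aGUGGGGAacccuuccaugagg
hsa-miR-491-3p: cUUAUGCAagauucccuucuac
The arms lie at chr9:20716120-20716141 and chr9:20716154-20716175 on the plus strand, within the span of FOCAD. Among 2370 mature human miRNAs in the RefSeq table, none other has the miR-491-5p seed at bases 2 to 8, and bases 2 to 7 are shared with miR-6742-5p and miR-4447. FOCAD itself had 5324 raw counts after miR-491-5p and 4150 after the control, not scaled for the larger total of the miR-491-5p input. Matches to the seed in the transcripts, and the sequence of the control miRNA, were not analysed here.

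Most RNAs had nearly the same level in both inputs. In bulk RNA such as this, fewer cells of a kind and less RNA per cell cannot be told apart. The median ratio was 0.0039, the quartiles were -0.15 and 0.18, and 94.2% of genes lay within 1.5-fold. At 2-fold, 54 genes were called higher with miR-491-5p (0.442%) and 54 lower (0.442%). At 1.5-fold the calls were 377 higher (3.09%) and 326 lower (2.67%). The lower calls reached much farther from 0 than the higher ones: the highest ratio was 1.92 (GCSAM) and the lowest -8.23 (HP). HP had 0 counts after miR-491-5p, and with 5 added to the normalised counts in place of 1 its ratio was -5.92. Outside the plasma protein, hepatocyte, fibroblast and immunoglobulin genes described below, the lowest called ratio was -1.93 (UNC93B1).

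**Figure D1:**
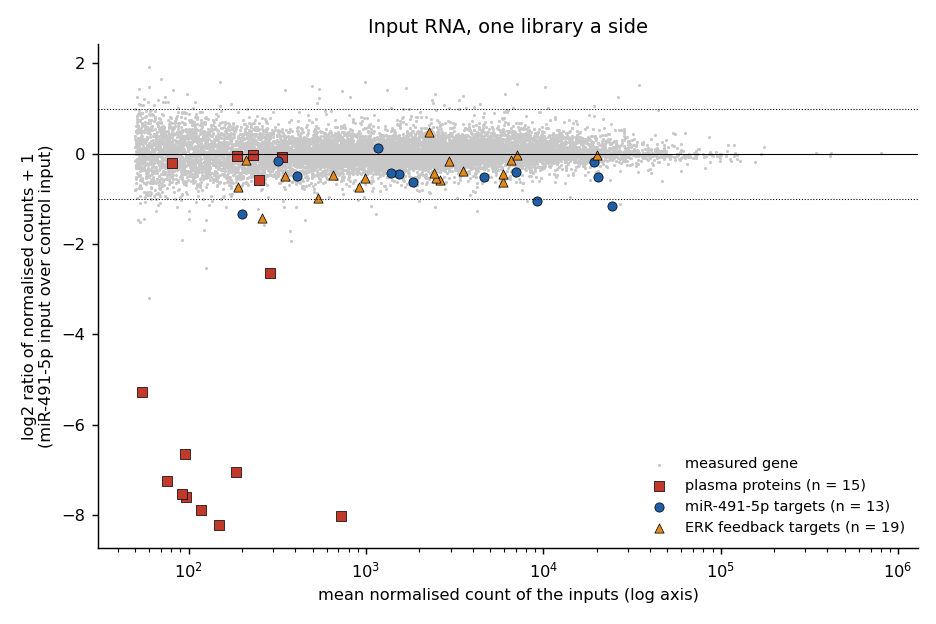
Log2 ratio of the miR-491-5p input over the control input (vertical axis) against the mean normalised count of the inputs (horizontal, log axis), 1 point a gene, with dotted lines at 2-fold. Plasma protein genes (red squares) lie at ratios down to -8.23, while the reported targets (blue circles) and ERK feedback genes (orange triangles) lie mostly between 0 and -1.4.

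Most of the lowest ratios belonged to genes of liver plasma proteins, whose reads came largely from the control input. These proteins are made chiefly by hepatocytes and secreted into the blood. ALB, which encodes serum albumin, had 5 counts after miR-491-5p and 1298 after the control in the inputs, and 0 and 2 on the respective beads. Its ratio was -8.02 (-9.23 to -6.81). FGA, a fibrinogen chain, had 213 counts in the control input while the other 3 libraries held 0. Control input over miR-491-5p input was at least 86.7-fold, with 3 counts taken as the floor of the library at 0. ALB and FGA were thus nearly absent from both libraries of the miR-491-5p lysate and also from the beads of the control lysate.

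Other plasma protein genes also had few or no counts in the miR-491-5p input. FGB, a second fibrinogen chain, had 0 counts against 174 in the inputs (at least 70.8-fold), and FGG, the third chain, had 1 against 171 (ratio -6.64). HP, the haemoglobin scavenger haptoglobin, had 0 against 270 (at least 109.9-fold), and ORM1, an acute-phase protein, had 0 against 166 (at least 67.5-fold). HP and ORM1 each have a close copy in the genome (HPR and ORM2), so their counts are uncertain. SERPINA1, which encodes the protease inhibitor alpha-1 antitrypsin, had 0 against 136 (at least 55.3-fold). APOB, the protein of low-density lipoprotein, had 2 against 335 (-7.04). C3, the central complement protein, differed from these, with 88 against 452 (-2.63, -2.96 to -2.30), and it was also present in the pull-downs, with 199 counts on the miR-491-5p beads and 129 on the control beads.

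Of 49 plasma protein genes 15 passed the count minimum, and 10 of these were called lower at 2-fold, with none higher. These counts and the list's median of -6.64 are a description only, since 10 genes reached the minimum largely through the control input. Of all 49, including the 34 under the minimum, 2 were at 0 in the control input, against 22 in the input after miR-491-5p, 15 on its beads and 20 on the control beads. Their counts summed to 1329 and 5042 in the inputs (miR-491-5p first) and to 1554 and 897 on the respective beads. Some members were level between the inputs. CP (ceruloplasmin) had 365 counts after miR-491-5p and 313 after the control, SAA1 (serum amyloid A) 254 and 211, and AMBP (the precursor of alpha-1-microglobulin) 202 and 172. CP had 451 counts on the miR-491-5p beads and 280 on the control beads, SAA1 200 and 104, and AMBP 185 and 81, so that the former held more of each.

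Some genes of other tissues moved with the plasma proteins, while others did not or had too few counts to tell. The 150 named immunoglobulin genes summed to 8 counts after miR-491-5p and 778 after the control, and to 14 on either kind of beads. IGHG1, a constant region of antibody heavy chains, had 0 counts against 143 (at least 58.2-fold), and IGLC2, of light chains, 0 against 80. ENSG00000211592, whose span on chromosome 2 contains the RefSeq gene IGKC, had 12 against 98 (-3.20). The red cell markers summed to 4 and 28 counts, with HBB at 0 and 22 and 5 of 7 markers at 0 in each input. The immune cell markers summed to 21 and 65, with CD3E at 0 and 4. The keratins KRT5, KRT6A, KRT6B and KRT17, chosen after their values were seen, summed to 6 and 233 counts in the inputs (miR-491-5p first) and to 12 and 7 on the beads. Hepatocyte enzymes as a list summed to 1469 and 1392 raw counts, not scaled for the larger total of the miR-491-5p input. As a share of each input's total, the list was lower after miR-491-5p. Of its genes, 12 of 26 were at 0 after miR-491-5p and 5 after the control.
CPS1, the first enzyme of the urea cycle, had 42 against 132 (-1.91). The part of RNA from other tissues in these values was not tested. Markers of ovarian carcinoma were detected for 15 of 15 genes in both inputs and summed to 136418 raw counts after miR-491-5p and 133926 after the control. As a share of each input's total, this sum was also lower after miR-491-5p, while the median ratio of the 13 measured genes was 0.028. Endothelial markers summed to 2520 and 3987 raw counts in the inputs and to 4270 and 7967 on the beads, with CDH5 at an input ratio of -0.97. Kidney tubule markers summed to 624 and 546 raw counts in the inputs. Pancreas markers summed to 2 and 0 counts and intestine markers to 12 and 14, too few to show much either way.

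**Figure D2:**
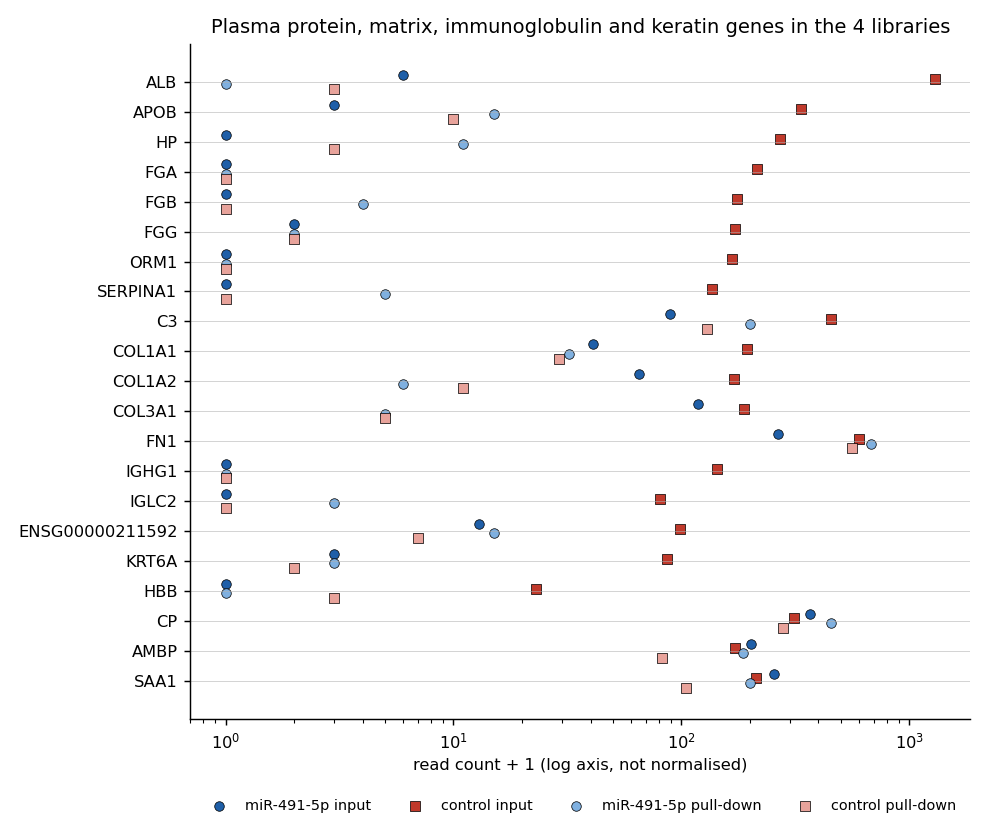
Read count plus 1 (horizontal, log axis, not normalised) of 21 plasma protein, matrix, immunoglobulin, keratin and globin genes (rows) in the 4 libraries, 1 point a library. For the upper genes the control input stands alone, up to 1298 counts for ALB, with the other 3 libraries near 0, whereas CP, AMBP and SAA1 have similar counts in the inputs.

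Matrix genes of connective tissue were lower as well, and here the pattern was mixed. Of 41 listed collagen and matrix genes 30 were measured, 24 had a ratio below 0 (49.3% of all genes did) and 8 were called lower at 1.5-fold (2.67% of all genes), with none higher. The median was -0.26 beside 0.0039 over all genes. Some of the called genes reached the count minimum largely through the control input, so the number of calls is a description only. Among them, COL1A1 had 36.2 normalised counts after miR-491-5p and 213 after the control, and the collagen gene COL6A3 27.2 and 76.2. At a minimum of 200 the list's median was -0.19 (21 genes). COL1A1, the main chain of type I collagen, had 40 counts after miR-491-5p and 193 after the control in the inputs, with 31 and 28 in the pull-downs (ratio -2.53, -3.01 to -2.04). COL1A2, the second chain, had 64 and 170 in the inputs but only 5 and 10 in the pull-downs (-1.68). COL3A1, of type III collagen, had 118 and 188 in the inputs and 4 in each pull-down (-0.95). COL1A2 and COL3A1 were thus low in both pull-downs but present in both inputs, unlike ALB and FGA, while COL1A1 had about as many counts on the beads as in the miR-491-5p input. FN1, which encodes fibronectin, had 264 and 601 counts in the inputs and 677 and 558 in the pull-downs (-1.47), so that the miR-491-5p input was the low one of the 4. DCN, a fibroblast proteoglycan under the count minimum, went the other way, with 44 counts against 20, and LUM had 10 and 8. With genes of the plasma protein, hepatocyte, fibroblast and immunoglobulin lists left out, 38 genes remained lower at 2-fold and 54 higher. The 38 still held FN1 and the keratin KRT15 (-1.46), which are in none of those lists.

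The reported targets of miR-491-5p were next examined among the well-measured genes. Of 17 genes listed from background knowledge of published targets, 13 passed the count minimum, while IRF4, NOTCH3, MMP9 and WNT3A did not. This list, like the others, was chosen with earlier results of these data known, so its counts are a description only. The median ratio of the 13 was -0.49 beside 0.0039 over all genes. 12 of the 13 had a ratio below 0 (49.3% of all genes did), and 11 had an interval below 0 (28.6% of all genes). 4 were called lower at 1.5-fold (2.67% of all genes were) and 3 at 2-fold (0.442% of all genes were), with none called higher at either.

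EGFR had a normalised count of 6053 in the miR-491-5p input and 12441 in the control input, a 2.06-fold lower level (ratio -1.04, -1.08 to -0.996). In the pull-downs it also had less RNA with miR-491-5p, at 12417 against 19123 (-0.62). HMGA2, an architectural chromatin factor, was among the most abundant of the targets, at 15095 against 33812 normalised counts (-1.16, -1.19 to -1.14). The lowest ratio of the list was that of FOXP4, a forkhead transcription factor, at 113 against 287 normalised counts (-1.34, -1.64 to -1.03). In the pull-downs FOXP4 was higher with miR-491-5p, by 0.77.

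BCL2L1 had 3799 normalised counts after miR-491-5p and 5444 after the control, a ratio of -0.52 (-0.58 to -0.46) that falls short of the 1.5-fold call, and its pull-down ratio was 0.74. GIT1, a scaffold of focal adhesions, had -0.64, and CD44, the hyaluronan receptor, -0.51. FGFR4, a fibroblast growth factor receptor, had -0.49 in the inputs and 1.04 in the pull-downs. KDM4B (a histone demethylase), IGF2BP1 (an RNA-binding protein) and SMAD3 (a TGF-beta signal transducer) lay between -0.46 and -0.40. The mitotic spindle protein TPX2 had -0.18, CDK6 -0.16 (-0.38 to 0.06) and TRAF6, an adaptor of innate immune receptors, 0.12. The reported targets thus spread over the whole range from 2.53-fold lower to slightly higher. In the pull-downs 7 of the 13 had a ratio below 0 and 6 above.

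The EGFR family and the genes induced by ERK signalling were then followed, since EGFR was among the lower genes. Ligands that bind EGFR set off a cascade from RAS to the kinases MEK and ERK. ERK in turn induces transcription factors such as FOSL1 and EGR1 and a set of feedback inhibitors (DUSP phosphatases, Sprouty proteins) that dampen the cascade. Of 17 genes for EGFR, its relatives, ligands and adaptors 16 were measured. EGFR was the single one called at 1.5-fold (2.67% of all genes were called lower). The median was -0.21, with 11 of 16 below 0 (49.3% of all genes were). The ligand HBEGF had 85.1 normalised counts after miR-491-5p and 126 after the control (-0.56, -0.95 to -0.17). EREG, a ligand at much higher counts, had 17666 and 23677 (-0.42), TGFA had 214 and 285 (-0.41) and AREG 520 and 632 (-0.28). The feedback inhibitor ERRFI1, which binds EGFR itself, had 4527 and 5885 (-0.38). Among the receptors related to EGFR, ERBB2 had -0.19 and ERBB3 0.29.

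Most genes of the ERK feedback list had less RNA after miR-491-5p. Of 21 genes 19 were measured. Their median ratio was -0.46, and 18 of 19 lay below 0 (49.3% of all genes did). An interval below 0 was found for 15 of 19 (28.6% of all genes), and 5 were called lower at 1.5-fold (2.67% of all genes), with none higher. FOSL1, an AP-1 transcription factor, had 141 normalised counts after miR-491-5p and 380 after the control (-1.42, -1.69 to -1.15). Its interval lies wholly below a 2-fold drop. ETV4, an ETS factor, had 358 and 712 (-0.99, -1.17 to -0.81). EGR1, an immediate early transcription factor, had 141 and 236 (-0.74). SPRY4, a Sprouty inhibitor, had 690 and 1150 (-0.74). MYC, the growth-promoting transcription factor, had 4703 and 7223 (-0.62, -0.67 to -0.57). The genes called lower thus span low and high counts.

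Most of the remaining feedback genes were lower by less than 1.5-fold. PHLDA1 had -0.58, the receptor EPHA2 -0.55, and the ERK phosphatases DUSP6 and DUSP5 -0.54 and -0.44. SPRY2 had -0.43, and CCND1, the cyclin of early G1, was level at -0.02 (19880 and 20144 normalised counts). EPHA4 was the exception, at 0.48 (0.39 to 0.56). JUN, the AP-1 partner of FOSL1, named after its values were seen, had 952 and 1628 (-0.77). In the pull-downs the 19 genes had a median of -0.68 and 16 of them a ratio below 0 (49.6% of all genes did). The pull-down libraries are separate from the input libraries but come from the same lysates.

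**Figure D3:**
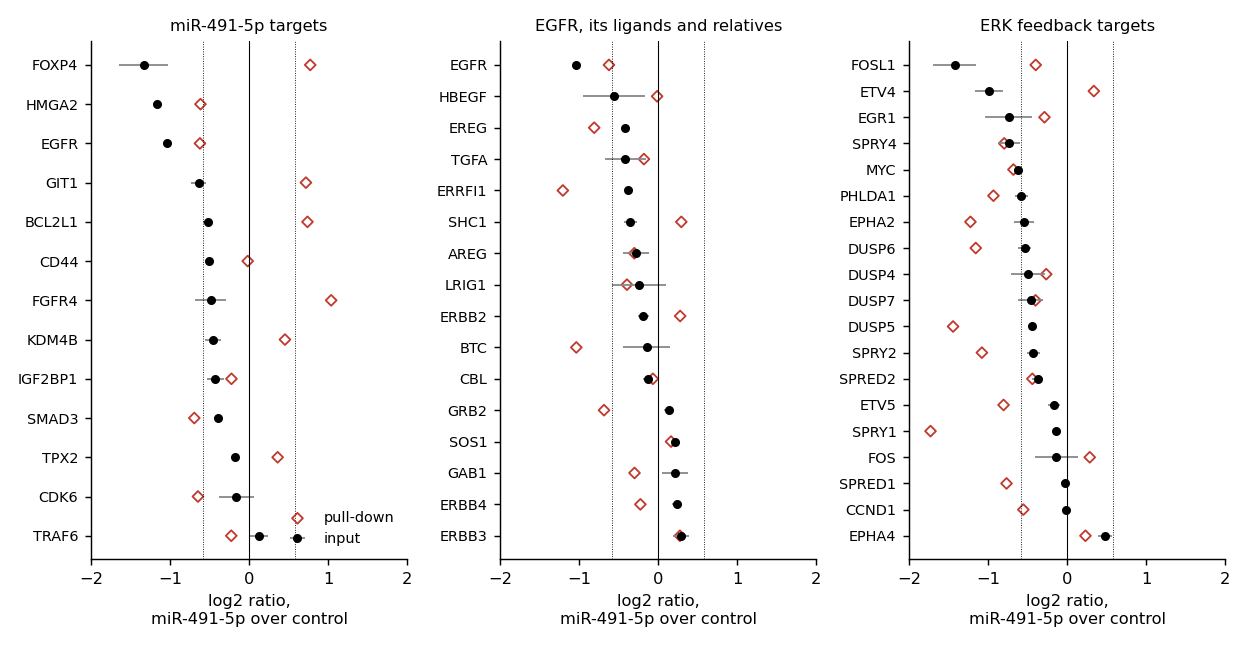
Log2 ratio of miR-491-5p over control (horizontal axis) for each measured gene of 3 lists, with the input ratio as a black point with its 95% counting interval and the pull-down ratio as an open red diamond, and dotted lines at 1.5-fold. Of the input ratios 12 of 13 targets and 18 of 19 ERK feedback genes lie below 0, while the pull-down ratios of the targets fall on both sides.

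Promoters of genes lower at 1.5-fold were searched for motifs tied to this cascade, in the 250 bases before each RefSeq start on GRCh38.p14, on both strands. The motifs were TGANTCA, bound by AP-1 factors, TGACGTCA, the cyclic AMP response element, and the CArG box, bound by serum response factor, and no match of one can lie wholly within another. TGANTCA was found in 3.47% of 9185 promoters of measured genes, in 5.71% of those of the lower genes (12 of 210) and in 3.21% of those of the higher genes (8 of 249). TGACGTCA was found in 3.04%, 2.86% and 0.803%. CArG boxes stood in 0.991% of all promoters, in 2.38% of those of the lower genes (5 of 210) and in 1.20% of those of the higher genes (3 of 249). BCL2 and EGR1 were among the 5 lower genes. These counts are small, and a match is a description of the letters only.

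The EGR1 promoter (chr5:138465229-138465478, plus strand) is shown for its pair of CArG boxes, in capitals. That of EMP1 (chr12:13196476-13196725, plus strand), a membrane protein gene among the 8 lowest well-expressed genes, is shown for its pair of AP-1 matches, also in capitals.
EGR1: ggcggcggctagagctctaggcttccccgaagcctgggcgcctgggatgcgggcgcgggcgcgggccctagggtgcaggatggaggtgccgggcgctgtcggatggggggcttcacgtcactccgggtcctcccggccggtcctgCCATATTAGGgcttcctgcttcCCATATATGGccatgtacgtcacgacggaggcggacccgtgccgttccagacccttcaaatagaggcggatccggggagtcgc
EMP1: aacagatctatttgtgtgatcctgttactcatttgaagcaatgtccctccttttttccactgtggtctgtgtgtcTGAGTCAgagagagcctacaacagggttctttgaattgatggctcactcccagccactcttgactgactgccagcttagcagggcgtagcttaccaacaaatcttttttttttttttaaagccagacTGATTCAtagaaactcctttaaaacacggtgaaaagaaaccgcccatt

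Among genes with a mean of at least 1000, where counting error is small (the interval's median distance to either side was 0.067), the lowest 8 ratios by the rule included HMGA2 and EGFR. CYB5R3, a reductase of cytochrome b5, had 644 normalised counts after miR-491-5p and 1625 after the control (-1.33, -1.46 to -1.20). TRNP1, a nuclear protein, had 2502 and 5992 (-1.26), and EMP1 1495 and 3396 (-1.18). PPP1CC, a catalytic subunit of protein phosphatase 1, was the most abundant, at 17054 and 36823 (-1.11, -1.14 to -1.08). STK40, a serine/threonine kinase family member, had 658 and 1479 (-1.17), and TM4SF1, a membrane protein, 5281 and 10925 (-1.05). Among genes with fewer counts, SOX9, a transcription factor of progenitor cells, had 174 and 572 (-1.71, -1.95 to -1.48). UNC93B1, a partner of Toll-like receptors, had 157 and 603 (-1.93), but it has near-identical copies and its counts are uncertain. IL1RL1, the interleukin 33 receptor, named after its values were seen, had 147 and 362 raw counts (-1.58). CDKN2B, an inhibitor of CDK4 and CDK6, had 48 and 85 raw counts (-1.09).

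The pull-downs split these lower genes. TM4SF1 had a pull-down ratio of 1.25, with 20096 counts on the miR-491-5p beads and 7644 on the control beads. STK40 had 1.24. SAMD4B, an RNA-binding protein gene with an input ratio of -1.05, had 1.28, and RAVER1, a splicing cofactor gene at -1.17 in the inputs, had 1.81. SAMD4B and RAVER1 were named after their values were seen. PPP1CC and SOX9 went the other way, with pull-down ratios of -1.12 and -1.30, beside -1.11 and -1.71 in the inputs. Over the 38 genes lower at 2-fold outside the plasma protein, hepatocyte, fibroblast and immunoglobulin lists, 7 were called higher in the pull-downs at 2-fold (18.4%, beside 2.44% of all genes) and 6 lower (15.8%, beside 3.19%). Over the 78 genes lower at 1.5-fold with a mean of at least 1000, 39 had a pull-down ratio above 0 (50.0%, beside 45.1% of all genes at that level and 50.4% of all genes) and 39 below. In that set 11 were called higher in the pull-downs at 2-fold (14.1%, beside 1.04% of all genes at that level) and 6 lower (7.69%, beside 3.22%).

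Genes higher in the miR-491-5p input reached 1.5-fold to 3.8-fold. UHMK1, a kinase of splicing factors, had 51118 normalised counts after miR-491-5p and 17731 after the control, 2.88-fold higher (1.53, 1.502 to 1.55). CACUL1, a cullin-domain cell cycle regulator, had 10561 and 3633 (1.54), and HIPK1, a homeodomain-interacting kinase, 15141 and 5419 (1.48). LGMN, the lysosomal protease legumain, had 1492 and 496 (1.59, 1.44 to 1.74). MNAT1, which assembles the CDK-activating kinase, had 2473 and 898 (1.46), and TRIM23, a ubiquitin ligase, 1908 and 718 (1.41). The level of each was thus more than 2-fold higher after miR-491-5p. YWHAB, a 14-3-3 signalling adaptor, had 37271 and 15636 (1.25), and NARS2, the mitochondrial asparaginyl-tRNA synthetase, 3520 and 1414 (1.32). SESN3, a stress-induced regulator of mTORC1, had 733 and 259 (2.83-fold). EDEM3, which trims glycans of misfolded proteins, had 4968 and 2046 (1.28), and B4GALT6, a lactosylceramide synthase, 227 and 75.1 (1.58). The highest ratio, GCSAM at 1.92 (1.27 to 2.58), rested on 105 and 22 counts. GCSAM overlaps C3orf52 (1.43) on chromosome 3, so the values of both are uncertain. NSF (1.40), a vesicle fusion ATPase, lies beside a near-identical copy and is uncertain too.

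These higher genes tended to have fewer reads on the miR-491-5p beads than on the control beads. UHMK1 had 47512 counts on the miR-491-5p beads and 75401 on the control beads (-0.81). CACUL1 had 13803 and 26446 (-1.08), and YWHAB 29813 and 69095 (-1.35). FGD5-AS1, a lncRNA named by the last stage of the position match, had 14643 and 52378 (-1.98) and an input ratio of 1.33. In each of these 4 the input and the pull-down ratio have opposite signs. YTHDF2, a reader of m6A-marked RNA, named after its values were seen, had 12037 and 59496 in the pull-downs (-2.45) and 1.02 in the inputs. SOCS6, an inhibitor of receptor signalling, named after its values were seen, had 6526 and 102431 in the pull-downs (-4.11) and 4916 and 2027 in the inputs (0.99). PIAS3, a SUMO ligase, also named after its values were seen, had 1003 and 4387 in the pull-downs (-2.27) and 1.24 in the inputs. HIPK1 and SESN3 did not share this, with pull-down ratios of -0.15 and 0.06.

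Over the 54 genes higher at 2-fold, 38 had a pull-down ratio below 0 (70.4%, beside 49.6% of all genes). Of the 54, 17 were called lower in the pull-downs at 2-fold (31.5%, beside 3.19%) and 1 was called higher. Among genes with a mean of at least 1000, 129 were higher at 1.5-fold in the inputs. Of these, 105 had a pull-down ratio below 0 (81.4%, beside 54.9% of all genes at that level), and 38 were called lower in the pull-downs (29.5%, beside 3.22%). Their median pull-down ratio was -0.53, beside -0.046 for all genes at that level. Because the pull-down ratio compares the beads of both miRNAs, a low value can come from fewer reads with miR-491-5p or more with the control, and the control input is also the low one for these genes. The part of the control miRNA in these values was not tested.

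**Figure D4:**
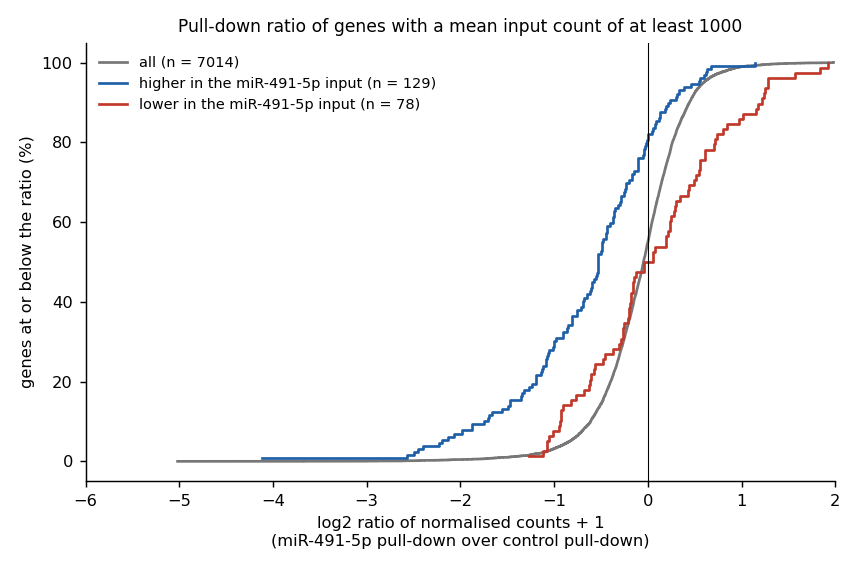
Cumulative share of genes (vertical axis, %) at or below each pull-down log2 ratio (horizontal axis, miR-491-5p over control) for genes with a mean input count of at least 1000. The curve of the 129 genes higher in the miR-491-5p input lies to the left of all genes with 81.4% below 0, and the curve of the 78 lower genes spreads to both sides.

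Among genes of cell death few were called, and those lay on both sides. Of the anti-apoptotic BCL-2 family 4 genes were measured. BCL2 had 44 raw counts after miR-491-5p and 68 after the control (-0.90, -1.44 to -0.35). MCL1 was nearly level at -0.10, with 26663 and 23343 raw counts, and BCL2L2 had 0.31. Of 11 pro-apoptotic relatives 1 was called higher at 1.5-fold (3.09% of all genes were) and 1 lower (2.67%). BMF, an activator of death after loss of attachment, had 404 and 191 raw counts (0.79), and BBC3, which encodes PUMA, 52 and 79 (-0.88). None of 16 caspase and death receptor genes was called. Among 21 p53 targets 2 were called higher at 1.5-fold (3.09% of all genes), TP53INP1 at 0.86 and RRM2B at 0.68, and 3 lower (2.67% of all genes), among them PLK3 at -0.998 and GADD45A at -0.59. The median of the list was -0.26, with 13 of 21 intervals below 0 (28.6% of all genes) and 6 above (31.1%).

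Lists of stress and growth pathways were read in the same way. Of 25 endoplasmic reticulum stress genes 1 was called higher at 1.5-fold (3.09% of all genes were) and 1 lower (2.67%). CANX, a chaperone of glycoproteins, had 58552 normalised counts after miR-491-5p and 29789 after the control (0.97). ATF3, a stress transcription factor, had 313 and 497 (-0.67). Among 18 measured PI3K, AKT and mTOR genes, MTOR itself was the only call at 1.5-fold, at 5974 and 9323 (-0.64). Of all genes, 2.67% were called lower. RICTOR, the partner of MTOR in complex 2, had 0.49. SLC7A5, a leucine transporter, had 10304 and 16039 (-0.64). All 9 measured genes of NF-kB and cytokine signalling had ratios below 0 (49.3% of all genes did), with a median of -0.30. LIF, a cytokine, had 776 and 1378 (-0.83), and CXCL8, which encodes interleukin 8, 445 and 645 (-0.53). Of 11 measured interferon response genes 10 lay above 0 and 1 below (49.3% of all genes lay below), with a median of 0.16. Of the 11, 3 were called higher at 1.5-fold (3.09% of all genes were). IFIT1, an RNA-binding antiviral protein, had 606 and 336 normalised counts (0.85), STAT2 1884 and 1129 (0.74) and IFIT2 288 and 179 (0.68). MX1, under the minimum, had 40 and 16 raw counts.

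Genes of the cell cycle were close to level. Of 26 mitosis genes 22 lay above 0 and 4 below (49.3% of all genes lay below), with a median of 0.14. None was called at 1.5-fold, although CENPE, a kinetochore motor, came to 0.58. The median of 26 DNA replication genes was 0.0042. Of 19 G1 cyclin and CDK inhibitor genes, 1 was called higher at 1.5-fold (3.09% of all genes were) and 1 lower (2.67%). These were CDKN2C, a CDK inhibitor, at 0.71, and CDKN2B. In the SMAD and TGF-beta list, ACVR1C, an activin receptor, had 118 and 30 raw counts (1.66, 1.08 to 2.23) and the ligand TGFB2 92 and 47 (0.67). The receptor TGFBR2 had 16212 and 19813 raw counts (-0.58). Among the markers of the tissue of origin, the adhesion protein CDH1 had 373 and 188 raw counts (0.70) and EPCAM 16766 and 9693 (0.50). The keratin KRT18 had 41115 and 50861 raw counts (-0.59), and the lineage factors PAX8 and WT1 had ratios of -0.24 and 0.15. EHF, an epithelial ETS factor named after its values were seen, had 9247 and 3859 raw counts (0.97).

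Larger gene families showed small shifts. Cytosolic ribosomal protein genes (77 measured) came to a median of -0.043, 57 of them below 0 (49.3% of all genes were), and none was called. The median of 368 ZNF genes was 0.11, with 234 above 0 and 134 below (49.3% of all genes lay below). Of the 368, 16 were called higher at 1.5-fold and 4 lower (3.09% and 2.67% of all genes). The 42 histone genes had a median of 0.089 and the 13 messenger RNAs of mitochondrial DNA 0.075, with no calls in either. Of 69 nuclear genes of oxidative phosphorylation 3 were called higher, a share near that of all genes, with NDUFB5, a complex I subunit, at 1.18. All 7 measured nuclear RNAs lay above 0 (49.3% of all genes lay below). MALAT1, a nuclear speckle RNA, had 23293 and 14504 raw counts (0.40) and FTX, from the X-inactivation centre, 112 and 60 (0.61), although nuclei had been spun out of both lysates. Of 473 lncRNA genes 42 were called higher at 1.5-fold (8.88%) and 12 lower (2.54%), beside 272 and 264 of 10588 protein-coding genes. Calls were most frequent at low counts: among the 2442 genes of lowest mean count, the first of 5 equal groups, 7.99% were called higher and 7.25% lower, and in the group of highest mean count 1.97% and 0.778%. With 5 groups by exon length the medians ran from -0.022 to 0.049, the longest genes being highest. With 5 groups by the share of G and C in the promoter, medians fell from 0.033 (lowest share) to -0.040 (highest). The part of such properties in the medians of the lists was not tested.

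**Figure D5:**
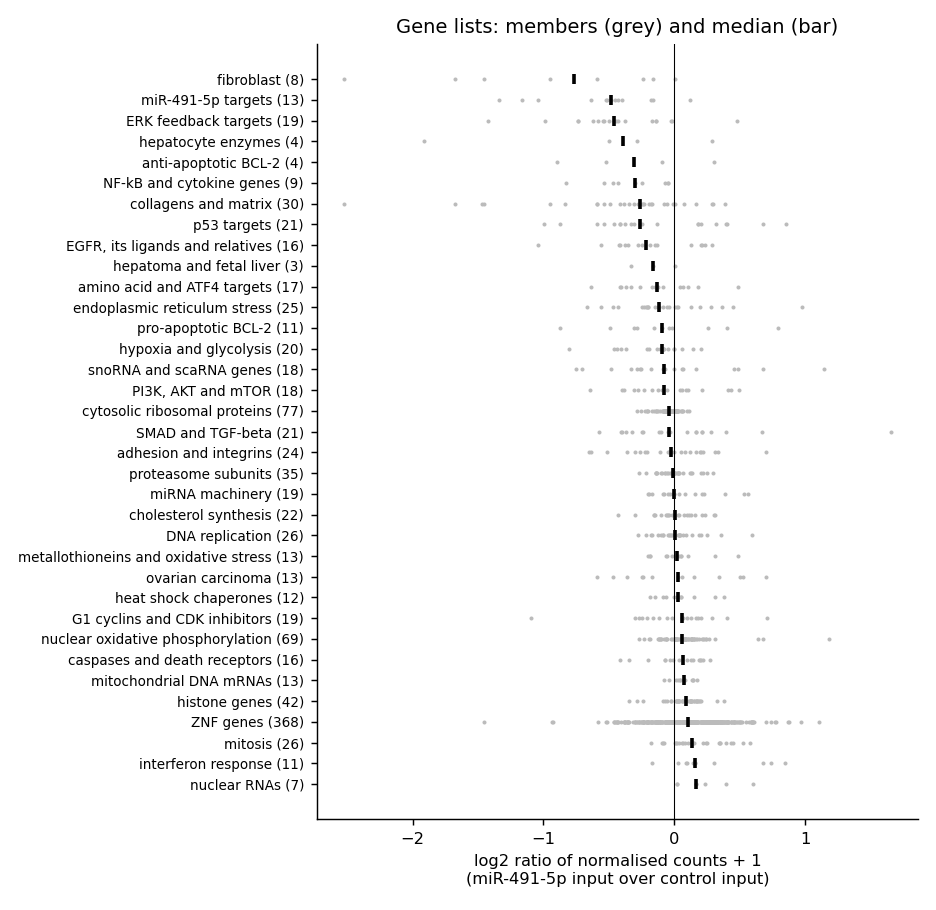
Log2 ratio of the miR-491-5p input over the control input (horizontal axis) for the measured members (grey points) of each gene list with at least 3 of them, with the number measured in brackets and the list's median as a bar. Of the lists drawn, the fibroblast, target and ERK feedback lists have the lowest medians (-0.77, -0.49 and -0.46), and the plasma protein list, at -6.64, is not drawn. The fibroblast median depended on the count minimum: at a minimum of 200 it was -0.16 (3 genes), beside -0.49 and -0.45 for the other lists named.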

How the data were processed

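RNA of IGROV1-R10 cells was sequenced in 4 libraries of 1 per group, prepared with a stranded total RNA kit, per the labels. The authors deposited raw read counts for each gene. Per the file headers, featureCounts 1.5.0-p1 counted reads singly, without strand and without marked duplicates, on GENCODE release 24 and hg38. STAR, GRCh38 and DESeq2 1.10.1 are named in the submitters' processing notes. Reads shared by overlapping or near-identical genes are thus uncertain.

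Here, size factors came from DESeq2 1.42.0 in R 4.3.3, over both inputs or both pull-downs. The standard error of a log2 ratio is its counting error, after adding 0.5 to every count, and intervals extend 1.96 standard errors either way. RefSeq genes of GRCh38.p14 gave names by position in 4 stages, for 41616 of 60554 genes, and for 728 with the positions moved by 3 Mb. Named genes were the 15 highest and lowest by interval bound at 2-fold, the 8 highest and lowest with a mean of at least 1000, listed targets, plasma protein and hepatocyte genes, and the 3 largest ratios of each list, besides those said to be chosen later and further list members. The members and lists were chosen with earlier results of these data known. Scaling (total counts, TMM of edgeR 4.0.16, factors over all libraries), the count minimum, the pseudocount of 1 and the fold were varied. The calculation was tested on simulated counts. Matches to the miRNA seed were planned but not analysed here. A few genes that the rule takes are not reported here.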

Additional observations from a re-analysis of the deposited data

How the results depend on the processing

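The counts at 2-fold depended on the count minimum. There were 54 higher and 54 lower genes at a minimum of 50, 355 and 307 at a minimum of 10, 473 and 441 with none, and 30 and 22 at a minimum of 200. At 1.5-fold there were 377 and 326. The median of the plasma protein list went from -6.64 to -4.03 at a minimum of 10 (32 genes), -3.04 with none (47 genes) and -0.58 at a minimum of 200 (5 genes), as the genes included changed. With a pseudocount of 5 that median was -4.96 (15 genes). Scaling, the pseudocount and halved counts kept both counts within 1.5 times, and the medians of the targets and ERK feedback genes moved by less than counting error. Scaling to total counts gave 45 higher and 62 lower genes and a shift of the overall median by -0.034, and 5 of 36 list medians changed sign there. Without the plasma protein and hepatocyte genes 43 genes were lower, and without fibroblast and immunoglobulin genes too, an alternative added after seeing the data, 38. No paired analysis was possible because each group has 1 library and no replicate numbers pair the groups. Low counts limit the precision: PRRT3, just over the minimum, had a ratio of 0.14 with an interval from -0.42 to 0.71.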

Other observations

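Further well-measured genes, chosen after their values were seen, differed by at least 1.5-fold between the inputs. PLK2, a polo-like kinase, had 3195 raw counts after miR-491-5p and 4614 after the control (ratio -0.82), and its pull-down ratio was -0.81. ELK3, an ETS factor of the ternary complex family, had 2963 and 4550 (-0.91), with 0.50 on the beads, and DUSP3, a dual-specificity phosphatase, 6155 and 8767 (-0.80), with 0.28. The DNA methyltransferase DNMT3B had 4653 and 6313 (-0.73) and the histone methyltransferase DOT1L 962 and 1388 (-0.82), with 0.80 and 0.61 on the beads. The mitochondrial carrier gene SLC25A23 had 1320 and 1757 (-0.70) and 1.84 on the beads. In the other direction, RRAS2, a RAS-related GTPase, had 25856 and 11637 raw counts (0.86) with -2.13 on the beads. BCAP29, a membrane protein of the endoplasmic reticulum, had 8687 and 3771 raw counts (0.92) with -2.57.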
